A study of Mus musculus with 4 samples.

Results

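The T cells described here came from collecting lymphatic vessels of the mouse, dissected with some of their surrounding tissue. A barcode, the tag of 1 droplet, was taken as a T cell if it had at least 2 unique molecular identifiers (UMIs, counted transcripts) over Cd3e, Cd3d and Cd3g together, at least 1 over Trac, Lck and Bcl11b, none of Ncr1 or Cd79a, at most 1 of C1qa and at most 2 of Col1a1. These limits left out natural killer cells, B cells, macrophages and fibroblasts. The rule found 319 of 23666 kept barcodes (1.35%, 95% exact interval 1.20% to 1.50%). Kept barcodes were those with 500 or more UMIs and 300 or more genes, of whose UMIs less than 15% were mitochondrial. The 319 barcodes held 1909151 UMIs, with a median of 4865 UMIs (535 to 54501) and 1953 genes.

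The study asks how TRPV4, a calcium-permeable cation channel, regulates lymphatic vessel contraction. Its cells came from C57BL/6J mice of 12 to 14 weeks, 4 male (M1-M4) and 4 female (F1-F4), with no treatment or mutation given, and multiplexing oligos were sequenced beside the transcripts. For every mouse the vessels of the popliteal, inguinal-axillary, mesenteric and superficial cervical regions were digested together, so no result can be assigned to a vessel bed. All cells were deposited in 1 matrix whose barcodes carry 8 suffixes that the labels tie to neither mouse nor sex. The data were therefore treated as 1 pooled sample, no test was made, and all intervals cover counting error only.

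T cells recognise antigen through a receptor made of an alpha and a beta chain or of a gamma and a delta chain, carried to the surface by the CD3 proteins and the zeta chain. CD4 or CD8 coreceptors mark the main alpha-beta lineages, Foxp3 defines regulatory T cells, and gamma-delta cells that make interleukin 17 settle in skin, fat and other barrier tissues early in life. Collecting lymphatic vessels carry T cells from tissue to lymph node, and T cells also reside in the fat around them. Vessel lumen and surrounding tissue were dissociated together, so cells in transit and resident cells cannot be told apart.

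The rule turned on the 3 Cd3 genes, which lie within a short stretch of mouse chromosome 9. Cd3g (ENSMUSG00000002033, minus strand, chr9:44969572-44980431 on GRCm38) and Cd3d (ENSMUSG00000032094, plus strand, chr9:44981786-44987339) are transcribed away from each other from starts 1355 bases apart in RefSeq. Cd3e (ENSMUSG00000032093) lies on the minus strand at chr9:44998740-45009627. The 250 bases before each RefSeq start (GRCm38.p6) are shown because Cd3g was found in barcodes that lacked the other Cd3 genes, as described below. Capitals mark matches on either strand to the ETS core GGAA or the GATA word AGATAA, written 5′ to 3′ on the gene's strand.
Cd3g, chr9:44980432-44980681, minus strand: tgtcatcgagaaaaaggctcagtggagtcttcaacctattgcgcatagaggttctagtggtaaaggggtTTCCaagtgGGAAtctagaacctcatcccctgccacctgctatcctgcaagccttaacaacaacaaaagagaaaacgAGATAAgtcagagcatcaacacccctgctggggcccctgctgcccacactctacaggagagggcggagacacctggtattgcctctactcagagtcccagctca
Cd3d, chr9:44981536-44981785, plus strand: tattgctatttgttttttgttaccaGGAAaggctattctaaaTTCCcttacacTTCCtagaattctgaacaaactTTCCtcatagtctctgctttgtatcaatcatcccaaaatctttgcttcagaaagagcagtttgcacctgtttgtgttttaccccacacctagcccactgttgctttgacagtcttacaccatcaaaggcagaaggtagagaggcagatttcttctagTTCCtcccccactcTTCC
Cd3e, chr9:45009612-45009861, minus strand: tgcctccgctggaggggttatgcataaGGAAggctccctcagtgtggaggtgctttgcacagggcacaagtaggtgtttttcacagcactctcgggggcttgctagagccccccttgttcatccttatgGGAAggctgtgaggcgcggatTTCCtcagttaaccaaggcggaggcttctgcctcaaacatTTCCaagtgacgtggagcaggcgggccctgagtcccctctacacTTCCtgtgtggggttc
The ETS core occurred 2 times before Cd3g, 6 times before Cd3d and 5 times before Cd3e, and 93.4% of 32851 promoter windows of that length hold it. AGATAA, letters read by GATA factors, occurred once, before Cd3g at 104 to 99 bases from the start. It is held by 9.99% of windows. TGTGGT, the RUNX word found in 14.0% of windows, was in none of the 3. The motifs were chosen after the Cd3 values were known and do not overlap one another here. Whether any of them bears on where Cd3g is found was not tested.

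Because the rule read them, the Cd3, Trac, Lck and Bcl11b values describe how the members were chosen and are no result. Among the 319 barcodes Cd3g was found in 298, Cd3d in 264 and Cd3e in 238. All 3 were found in 207 barcodes, and Trac in 202. The median was 8 Cd3 UMIs and the highest 76. Just inside the limit, 24 members had exactly 2 Cd3 UMIs, of which 4 had Trac and 14 had Il1rl1. Just outside it, 13 barcodes met all other criteria with 1 Cd3 UMI, of which 3 had Trac and 10 had Il1rl1. Of 435 kept barcodes with 2 or more Cd3 UMIs, 116 failed another criterion. Of these, 55 had no UMI of Trac, Lck or Bcl11b, 38 had too much Col1a1, 23 too much C1qa, 9 had Ncr1 and 3 had Cd79a, and some failed more than 1.

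The label was checked with T cell genes that the rule did not use, against lymphoid barcodes that lacked Cd3. This comparison set was 475 lymphoid barcodes with no Cd3 UMI, chosen by Ptprc and at least 2 UMIs over lymphoid genes. Its Ncr1-positive part (73 barcodes) carried natural killer genes. Its Gata3-positive part (238 barcodes, with Il7r, Il1rl1, Il5 or Il13) carried genes of group 2 innate lymphoid cells, which make type 2 cytokines without an antigen receptor. Of the remaining 164, 121 held 3 or more UMIs of dendritic cell markers, 103 of macrophage markers and 12 of epithelial markers. Values against the whole set are therefore given beside those against the 2 parts. All 23347 other kept barcodes were the second comparator. Levels are given as CPM, the UMIs of a gene in a set scaled to the same total for every set, with 95% exact Poisson intervals in brackets. A marker list of 11 genes (Trbc1, Trbc2, Cd247, Cd5, Cd6, Cd28, Zap70, Lat, Themis, Skap1 and Tcf7) summed to 4653 CPM in T barcodes, against 2083 CPM in the Ncr1-positive part, 1859.7 CPM in the Gata3-positive part and 42.9 CPM in all others. In the whole Cd3-negative set the list summed to 988 CPM. Over the 8 suffixes the T sum ran from 3856 to 5242 CPM. Of its genes Cd5, Cd6 and Themis were at 0 in the Ncr1-positive part, and none was at 0 in the Gata3-positive part.

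One group of members went against the label in some of the genes the rule did not read. Of the 80 members with neither Trac nor Trdc, the constant segments of the alpha and delta chains, 35 (43.8%, 32.7% to 55.3%) held 3 or more UMIs over the type 2 genes Il1rl1, Il5, Il13, Il17rb, Calca and Arg1. The same held for 26 of 202 members with Trac and 3 of 37 with only Trdc. It held for 232 of 238 barcodes of the Gata3-positive part, a share raised by the choice of that part on Il1rl1, Il5 and Il13 among others, and for 1 of 73 of the Ncr1-positive part, 2 of 305 B barcodes and 41 of 9536 fibroblasts. In the 35, Cd5, a surface inhibitor of receptor signalling, was found in 3 and the costimulatory receptor Cd28 in 4. In the other 45 with neither chain, Cd5 was found in 20 and Cd28 in 29. Cd6 was found in 3 of the 35 and 16 of the 45, and Themis in 2 and 25. Trbc2, of the same marker list, did not differ in this way, with 30 of the 35 and 40 of the 45. Cd3 values of the 35 and the 45 are not compared, since a member without Cd3d and Cd3e had to hold Cd3g.

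Cd3g was found apart from the other Cd3 genes in a set that no Cd3 gene had helped to choose. It was made of 320 kept barcodes with Ptprc, Gata3, 3 or more of those type 2 UMIs and neither Trac nor Trdc, within the rule's limits on Ncr1, Cd79a, C1qa and Col1a1. It held Cd3g in 76 barcodes (23.8%, 19.2% to 28.8%). Cd3d was found in 5 (1.56%, 0.509% to 3.61%) and Cd3e in 6 (1.88%, 0.691% to 4.04%). The beta chain constant segment Trbc2 was found in 236 of the 320 and the gamma chain constant segment Tcrg-C1 in 82. Of the 320, 29 met the T rule. The 80 members with neither chain are kept below, since the rule includes them. Il5 and the sums of the mast cell and group 2 innate lymphoid lists are given by receptor chain. Most other levels are not split in this way.

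**Figure D1:**
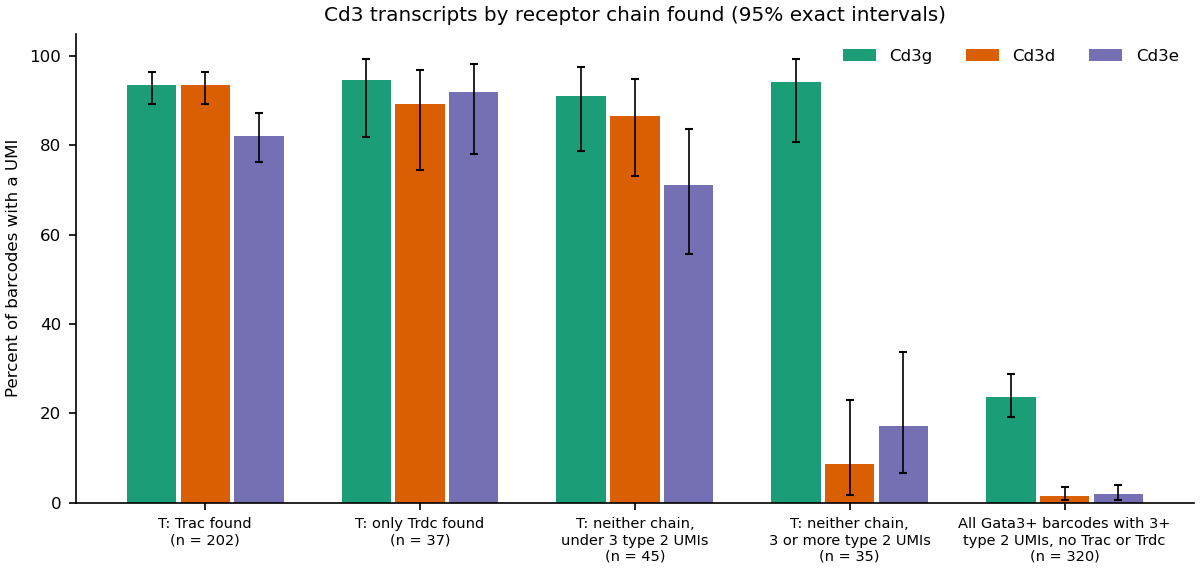
Percent of barcodes with a UMI of Cd3g, Cd3d or Cd3e in T barcodes split by receptor chain and type 2 UMIs, and in all Gata3-positive barcodes with 3 or more type 2 UMIs and neither Trac nor Trdc, chosen without Cd3 genes; error bars are 95% exact intervals. In that set Cd3g was found in 76 of 320, Cd3d in 5 and Cd3e in 6; the T bars are a description, since the T rule read these genes.

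T barcodes were unevenly spread over the 8 suffixes. Suffixes 1 to 4 held 49, 91, 42 and 55 T barcodes, and suffixes 5 to 8 held 11, 11, 28 and 32. The share of kept barcodes ran from 0.338% to 3.33% (median 1.29%). It was 2.21% (1.94% to 2.51%) over suffixes 1 to 4 together and 0.633% (0.504% to 0.786%) over suffixes 5 to 8. The 4 shares of suffixes 1 to 4 all lay above the 4 of suffixes 5 to 8. The Cd3-negative lymphoid share was 2.62% and 1.50% in the same 2 sets, and median depth of T barcodes was 4845 and 5007 UMIs. What the sets stand for is not labelled, so sex, mouse and library cannot be told apart. No T barcode sequence occurred in a second suffix, whereas 44 sequences among all deposited barcodes did.

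**Figure D2:**
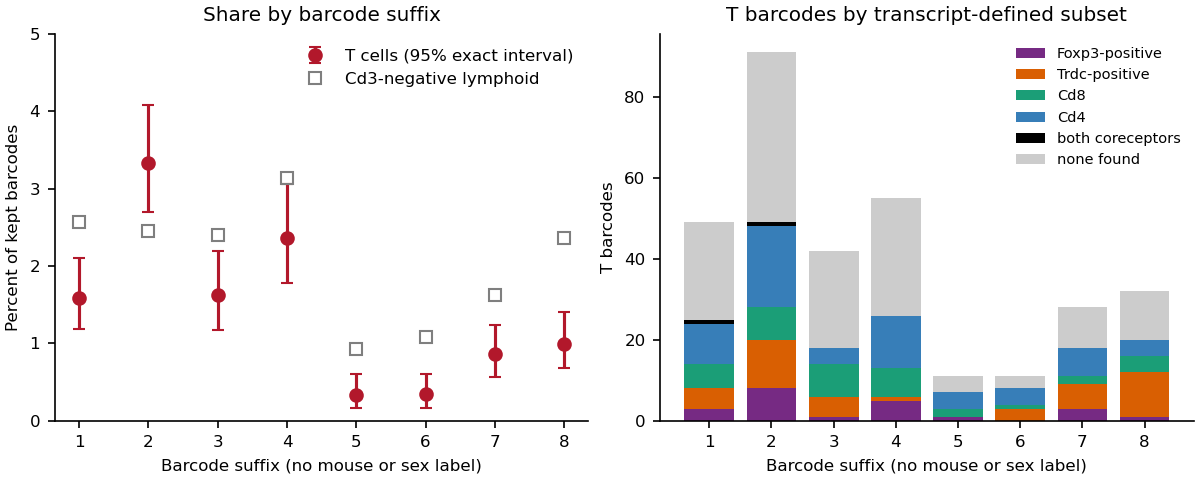
Left, share of kept barcodes that were T cells (filled, with 95% exact intervals) or Cd3-negative lymphoid (open) in each of 8 barcode suffixes; right, the number of T barcodes in each suffix by the subset their transcripts define. T shares run from 0.338% to 3.33% and are higher in suffixes 1 to 4.

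T barcodes were sorted by the lineage transcripts found in them, taking Foxp3 first, then Trdc, then the coreceptors. Foxp3 was found in 22 (6.90%, 4.37% to 10.3%), Trdc in 43 (13.5%, 9.93% to 17.7%), Cd8a or Cd8b1 without Cd4 in 38 (11.9%, 8.57% to 16.0%), and Cd4 without Cd8 in 66 (20.7%, 16.4% to 25.6%). Both coreceptors were found in 2. None of these transcripts was found in 148 (46.4%, 40.8% to 52.0%), a share that depends on depth: it was 62.7% when 2 UMIs were needed and 73.7% when every barcode was thinned to 1000 UMIs. A single UMI placed 36 of the 66 Cd4 barcodes, 8 of the Cd8, 5 of the Trdc and 6 of the Foxp3 barcodes. After that thinning, which left out 3 T barcodes, Cd4 was found in 8.54% of T barcodes against 0.424% of Cd3-negative lymphoid and 0% of B barcodes. Foxp3 was found in 4.43% of thinned T barcodes and in none of the thinned B, fibroblast or Cd3-negative lymphoid barcodes. Unthinned, Foxp3 was found in 6.90% of T barcodes (median 4865 UMIs) and 0 of 305 B barcodes (median 5158 UMIs), which allows a share of up to 0.984%.

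Constant and variable segments of the receptor chains are described in turn. Trac stood at 281 CPM (258 to 306) in T barcodes, where the rule had read it, against 2.14 CPM (0.922 to 4.21) in Cd3-negative lymphoid barcodes. Trbc2 stood at 837 CPM (796 to 879), against 295 CPM (241 to 358) in the Ncr1-positive and 325 CPM (296 to 355) in the Gata3-positive part. Trbc1 stood at 585 CPM (551 to 620.4), against 409.7 CPM (345 to 483) and 126 CPM (108 to 146). Trdc, in 43 barcodes, stood at 181 CPM (163 to 201), against 37.2 CPM (19.8 to 63.7) and 3.42 CPM (1.11 to 7.99). The gamma constant segment Tcrg-C2 was 56.9-fold (15.1 to 481) higher than in Cd3-negative lymphoid barcodes, a ratio that rests on 2 UMIs in them, whereas Tcrg-C4 was at 40.9 CPM (32.3 to 51.0) in T and 32.0 CPM (26.6 to 38.3) in Cd3-negative lymphoid barcodes, with overlapping intervals. Some of these segments have similar copies nearby, and how reads were counted among copies was not tested. Variable segments were sparse. Of 128 alpha segments in the annotation, 24 were found, in 33 T barcodes, and of 35 beta segments 12 were found, in 32, while no alpha or beta variable segment was found in the 475 Cd3-negative lymphoid barcodes. Trdv4 was not restricted in this way, with UMIs in 23 T, 51 Cd3-negative lymphoid and 85 fibroblast barcodes.

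Most of the 43 Trdc-positive barcodes held either several type 17 genes or none. Type 17 genes were counted per barcode over 6 genes: the cytokine receptors Il23r and Il1r1, the scavenger receptor genes Cd163l1 and 5830411N06Rik, the kinase Blk and the cytokine Il17a. Of the 43, 26 held 3 or more of the 6, 14 held none and 3 held 1 or 2. Among the other 276 T barcodes, 16 held 3 or more and 235 held none. Cd163l1, with 365 UMIs, was found in 25 barcodes, all Trdc-positive, at 1363 CPM (1227 to 1510.2), and in no other T barcode and no Cd3-negative lymphoid barcode. Over the suffixes its level in T barcodes ran from 0 to 935 CPM (median 113). Il23r was found in 26 of 43 Trdc-positive and 29 of 276 other T barcodes, at 605 CPM (515 to 706) against 90.8 CPM (76.8 to 107). Il17a itself was sparse, with 22 UMIs in 9 T barcodes, 5 of them Trdc-positive, and Il22 was listed at 0.

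Genes that were not used to divide the Trdc-positive barcodes also differed between the 26 with 3 or more type 17 genes and the 14 with none. Trdv4, which encodes the delta variable segment paired with the Tcrg-V6 product in innate gamma-delta cells, was found in 17 of 26 and 0 of 14. Tcrg-V6 was found in 10 of 26 and 0 of 14. Sox13, a transcription factor of the gamma-delta type 17 lineage, was found in 11 of 26 and 0 of 14. The tissue-homing receptor Cxcr6 was found in 26 of 26 and 4 of 14, and the calcium-binding protein gene S100a4 in 26 of 26 and 1 of 14. The opposite held for the chemokine Ccl5, in 0 of 26 and 13 of 14, and for the granule protein gene Nkg7, in 2 of 26 and 12 of 14. Cd27, a costimulatory receptor that separates interferon-gamma from interleukin 17 makers among mouse gamma-delta cells, was found in 4 of 26 and 13 of 14. Lef1, a transcription factor of naive T cells, was found in 4 of 26 and 12 of 14, and Tbx21, which drives type 1 responses, in 4 of 26 and 9 of 14. Il7r, the survival cytokine receptor, was found in every barcode of both kinds. The 2 kinds also lay in different suffixes, with 8 of 26 and 13 of 14 in suffixes 1 to 4. By suffix from 1 to 8 the 26 numbered 2, 4, 2, 0, 0, 3, 4 and 11. The 2 kinds were divided after the values were seen.

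The 16 T barcodes with 3 or more type 17 genes but no Trdc UMI are described beside the 26 with Trdc. Trac was found in 12 of 16, against 2 of the 26 with Trdc, and Cd163l1, Sox13 and Trdv4 in none. Zbtb16, which encodes PLZF, the transcription factor of innate-like T cells, was found in 16 of 16 and in 23 of 26. Maf was found in 13 of 16 and 23 of 26, and Ccl5 in none of either. Cxcr6 was found in 15 of 16 and 26 of 26, the actin-capping protein gene Capg in 11 and 24, Cd27 in 7 and 4, Nkg7 in 4 and 2, and Cd5 in 3 and 0. All 16 lay in suffixes 1 to 4, 9 of them in suffix 4. No Cd4 UMI was found in them, and 1 had Cd8b1. Over all T barcodes Zbtb16 was found in 99, at 339.9 CPM (314 to 367) and from 0 to 573 CPM (median 368) over the suffixes, against 63.8 CPM (56.0 to 72.4) in Cd3-negative lymphoid barcodes.

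The 22 Foxp3-positive barcodes carried regulatory genes and several type 2 and repair genes. A single barcode held 42007 of their 133673 UMIs, so the summed levels below weigh it heavily. Ctla4, the inhibitory receptor, was found in 21 of 22, at 1676 CPM (1463 to 1910.2) against 144 CPM (127 to 162) in the other 297 T barcodes. Ikzf2, which encodes Helios, was found in 19 of 22, at 2678 CPM (2408 to 2970.5) against 355 CPM (328 to 384). Tnfrsf4, the costimulatory receptor OX40, was found in 18 of 22, at 1197 CPM (1019 to 1397) against 128 CPM (112 to 146). Hopx was found in 18 and the transcription factor gene Tox in 18 of 22. Il1rl1, the interleukin 33 receptor, was found in 14 of 22, the growth factor Areg in 12 and the inhibitory lectin Klrg1 in 13, a set known from regulatory T cells of fat and other tissues. At least 1 of these 3 was found in 18 of 22 and all 3 in 8. The same 3 genes are expressed by the Gata3-positive part. Of other genes high there, Il5, Il13, Calca and Arg1 had no UMI in the 22, while Gata3 was found in some of them, as given below. Trac was found in 18 of 22. Whether any of these transcripts came from other cells was not tested. Gzmb, a granzyme, stood at 284 CPM (201 to 390.2) in the 22, from 7 barcodes. Il10 was found in 1 of them. Zbtb16 had no UMI. Foxp3-positive barcodes made 17 of 237 T barcodes in suffixes 1 to 4 and 5 of 82 in suffixes 5 to 8.

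Type 2 genes were also found in barcodes that held an alpha chain. Of the 202 T barcodes with Trac, 26 held 3 or more type 2 UMIs. Of these 26, Cd5 was found in 14, and of the 176 Trac barcodes with fewer type 2 UMIs in 77. Foxp3 was found in 9 of 26 and 9 of 176. Il5, the eosinophil growth factor, was found in 9 of the 26 and Il13 in 6, none of them with Foxp3. Themis was found in 5 of 26 and 110 of 176, Lef1 in 4 and 103, and S1pr1 in 4 and 79, while Klrg1 was found in 16 and 7 and Cxcr6 in 19 and 69. Barcodes with Foxp3, a set in which Klrg1 was also found, were not set apart in these counts. Cd4 was found in 9 of 26 and 60 of 176, and Cd8b1 in none and 32. Of the 26, 1 was called a doublet and 23 lay in suffixes 1 to 4. The groups were divided after the values were seen.

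Levels of single genes were set side by side in Cd4 and Cd8 barcodes. Over all genes, 5.21% of 6831 were more than 2-fold higher in Cd4 and 6.27% more than 2-fold lower, on a scale of CPM + 10. Ccl5 stood at 729.5 CPM (646 to 821) in Cd4 and 2831 CPM (2649 to 3022) in Cd8 barcodes, found in 28 of 66 and 22 of 38. Nkg7 stood at 305 CPM (251 to 366) in Cd4 and 547 CPM (469 to 635) in Cd8 barcodes, found in 28 of 66 and 31 of 38. Xcl1, a chemokine of cytotoxic lymphocytes, stood at 16.0 CPM (5.88 to 34.9) and 192 CPM (147 to 246), but 1 Cd8 barcode held 33 of its 61 UMIs. Ccr7, which steers T cells into and through lymphatic vessels, stood at 160.3 CPM (122 to 206) in Cd4 and 318 CPM (259 to 386) in Cd8 barcodes, found in 17 of 66 and 18 of 38, with 45 of the 101 Cd8 UMIs in 1 barcode. The chemokine receptor genes Cxcr3 and Ccr2 had ratios of Cd4 over Cd8 whose intervals held 1, at 1.32 (0.796 to 2.23) and 0.937 (0.549 to 1.61), as did Cd27, at 0.718 (0.5005 to 1.03), and the costimulatory receptor gene Tnfrsf9, at 1.53 (0.785 to 3.09). Gzmk, a granzyme of memory cells, was found in none of 66 Cd4 and 4 of 38 Cd8 barcodes, while Gzma was found in 3 and 1. Mki67 and Top2a, both markers of dividing cells, were found together in 2 of 66 Cd4 and 5 of 38 Cd8 barcodes, and in 13 of all 319.

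The 8 genes with the highest Cd4 to Cd8 ratio were Tnfrsf4, Ly6a, Ccl1, Il13, Areg, Ifng, Maf and St8sia6. Tnfrsf4 stood at 353 CPM (295 to 418) in Cd4 and 3.15 CPM (0.0796 to 17.5) in Cd8 barcodes. Maf stood at 281 CPM (229 to 339.7) and 22.0 CPM (8.85 to 45.4), found in 36 of 66 and 5 of 38. Cd5 stood at 363 CPM (305 to 429.9) and 97.5 CPM (66.3 to 138). Ifng, the interferon-gamma gene, stood at 147 CPM (111 to 191) and 6.29 CPM (0.762 to 22.7), from 10 and 2 barcodes, with 25 of the 55 Cd4 UMIs in 1 barcode. Ccl1, Il13 and Areg came from 3, 4 and 5 of the 66 Cd4 barcodes and are levels of a few cells. The 8 genes with the lowest ratio, Il1b, H2-Aa, Cd74, Acta2, Myl9, H2-Eb1, H2-Ab1 and Cd209a, are genes of dendritic, other myeloid or muscle cells. A pair of barcodes, both in the Cd8 set, held 1163 of the 1665 UMIs of H2-Aa, H2-Ab1, H2-Eb1 and Cd74 in all T barcodes. In 1 Cd8 barcode lay 163 of 166 Acta2 and all 60 Myl9 UMIs of that set. Without the 2 Cd8 barcodes called doublets, the log2 ratios of Acta2 and Myl9 turned to 1.41 and 0.85.

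The 148 barcodes with no lineage transcript were mixed. Of them, 46 held 3 or more type 2 UMIs, 15 held 3 or more type 17 genes and none held both. In the other 87, Trac was found in 65, Cd28 in 67, Lef1 in 54, Nkg7 in 51 and Zbtb16 in 35. Cd40lg, the ligand by which helper T cells activate B and dendritic cells, was found in 48 of the 148 and 28 of the 66 Cd4 barcodes, against 4 of 38 Cd8 and 2 of 22 Foxp3-positive barcodes.

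**Figure D3:**
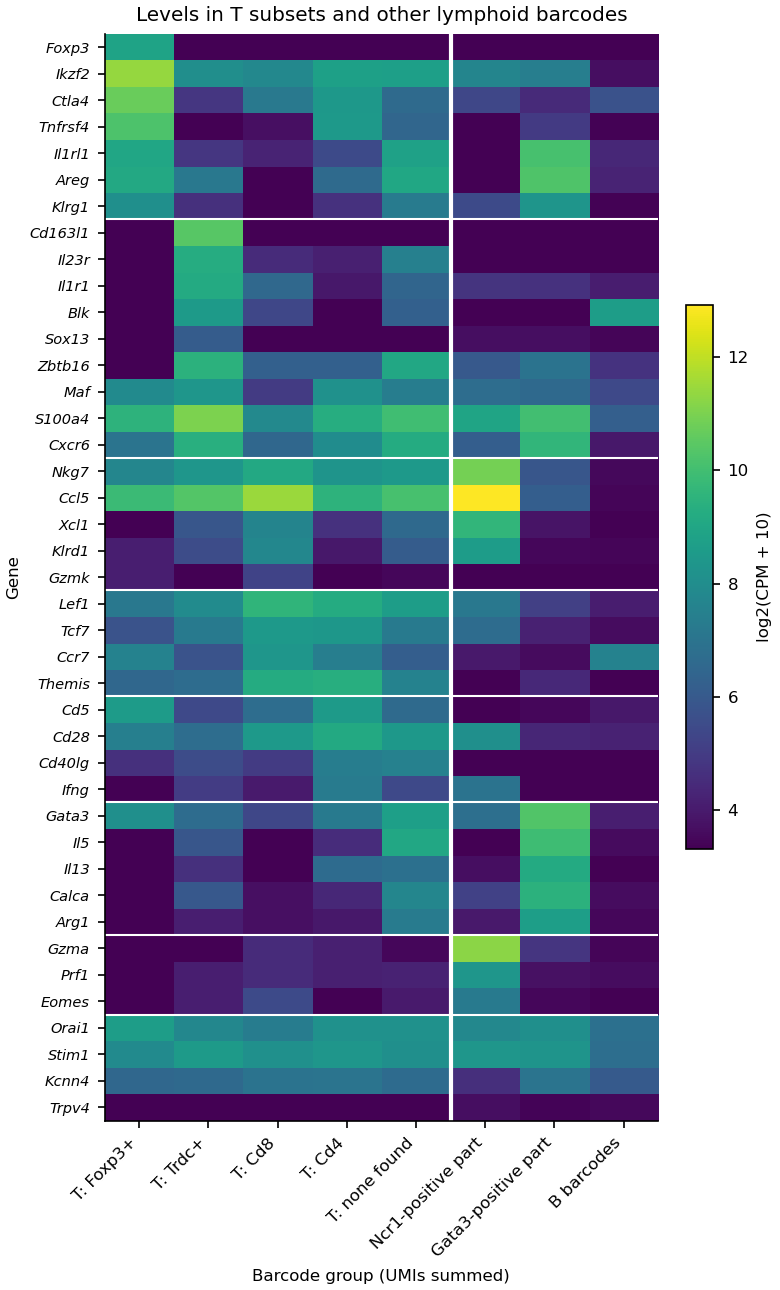
Levels of named genes, as log2(CPM + 10) of summed UMIs, in the T subsets (left of the white line) and in the Ncr1-positive part, the Gata3-positive part and B barcodes; white lines part the gene groups. Foxp3-positive barcodes share Il1rl1, Areg and Klrg1 with the Gata3-positive part but not Il5, and Cd163l1 is confined to the Trdc-positive column among those shown.

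Set against all 475 Cd3-negative lymphoid barcodes, 283 of 6921 genes (4.09%) were more than 2-fold higher in T barcodes and 629 (9.09%) more than 2-fold lower, with a median log2 ratio of 0.09. Ratios were taken on CPM + 10 over genes at 20 CPM or more in either group, leaving out genes that either set was chosen by. With 1 CPM added in place of 10, 445 genes were higher, and with the floor at 50 CPM 392 were lower. The 15 highest genes by ratio were Cd163l1, Themis, Il23r, Cd5, Ctla4, Cd6, Gramd3, Lef1, Cd40lg, Tnfrsf4, Cd247, Tcf7, Blk, Cd28 and Slfn1. Themis, an adaptor of receptor signalling needed in thymic selection, stood at 326 CPM (301 to 352) in T barcodes, against 11.6 CPM (6.78 to 18.6) in the Gata3-positive part and no UMI in the Ncr1-positive part. Over the suffixes it ran from 190.3 to 415 CPM (median 269.6) in T barcodes. Cd5 stood at 163 CPM (146 to 183), against 1.87 CPM (0.751 to 3.85) in Cd3-negative lymphoid barcodes, and the related receptor gene Cd6 at 128 CPM (112 to 145), against 0.801 CPM (0.165 to 2.34). Cd247, which encodes the zeta chain, stood at 445 CPM (415 to 476), against 166 CPM (126 to 215) in the Ncr1-positive and 26.7 CPM (19.0 to 36.5) in the Gata3-positive part. Cd40lg was found in 88 T barcodes, at 115 CPM (101 to 132), against 2 UMIs in Cd3-negative lymphoid barcodes. Lef1 stood at 450.5 CPM (421 to 482), against 135 CPM (98.9 to 179) and 25.3 CPM (17.8 to 34.9) in the 2 parts, and its partner Tcf7 at 208 CPM (188 to 230.0), against 94.5 CPM (65.1 to 133) and 8.22 CPM (4.25 to 14.4). Slfn1, a schlafen gene of resting T cells, stood at 71.2 CPM (59.8 to 84.3) in T barcodes and had no UMI in either part, and its suffix range was 58.1 to 109 CPM (median 69.2).

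The 15 lowest genes were H2-Aa, Cd74, H2-Eb1, H2-Ab1, Gzma, H2-DMb1, Tnip3, Il1b, Plbd1, Pid1, Alox5ap, Wdfy4, Cst3, Wfdc18 and Napsa. Most are genes of antigen-presenting cells. The dendritic marker list (Flt3, Xcr1, Clec9a, Cd209a and Zbtb46) summed to 39.3 CPM in T barcodes, against 443 CPM in Cd3-negative lymphoid barcodes, where 204 of 475 held it, and 25.8 CPM in the Ncr1-positive part. H2-Aa, a class II antigen presentation gene, stood at 142 CPM (126 to 159.9) in T barcodes, against 3346 CPM (3288 to 3405) in the whole set but 60.2 CPM (37.2 to 92.0) in its Ncr1-positive and 138 CPM (119.9 to 159) in its Gata3-positive part. Gzma, a granzyme of natural killer cells, was different, at 4.19 CPM (1.81 to 8.26) in T barcodes, against 2398 CPM (2238 to 2566) in the Ncr1-positive and 17.8 CPM (11.6 to 26.1) in the Gata3-positive part.

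Set against the 2 parts, the cytotoxic genes of T barcodes lay below the natural killer level and above the type 2 innate lymphoid level, and the type 2 genes the other way round. Against the Ncr1-positive part, 5.98% of 7111 genes were more than 2-fold higher in T barcodes and 6.6% lower. Against the Gata3-positive part, 7.18% of 6556 were higher and 5.99% lower. Of 13 cytotoxic list genes that reached the floor against the Ncr1-positive part, 13 were lower in T barcodes and 0 higher (median log2 -2.67, against -0.09 over all genes). Of 10 against the Gata3-positive part, 10 were higher (median 2.62, against 0.16). Ccl5 stood at 1320.5 CPM (1269 to 1373) in T barcodes, against 7653 CPM (7365 to 7948) and 63.7 CPM (51.4 to 78.0) in the 2 parts. Nkg7 stood at 356 CPM (329.9 to 384), against 1922 CPM (1779.7 to 2074) and 48.6 CPM (38.0 to 61.3), and Prf1, which encodes perforin, at 8.38 CPM (4.79 to 13.6), against 318 CPM (262 to 383) and 3.42 CPM (1.11 to 7.99). Of 7 type 2 list genes that reached the floor against the Ncr1-positive part, 7 were higher in T barcodes, and of 8 against the Gata3-positive part 8 were lower, but Il1rl1, Il5 and Il13 had helped to choose that part. The T level of type 2 genes differed by receptor chain. Il5 stood at 127 CPM (108 to 148) with Trac, 57.0 CPM (30.3 to 97.5) with only Trdc and 640.0 CPM (565 to 722) with neither chain.

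Receptor signalling genes were mostly higher in T barcodes. Of 18 that reached the floor, 15 were more than 2-fold higher in T barcodes than in Cd3-negative lymphoid barcodes and none lower, while 9 were higher against the Ncr1-positive and 10 against the Gata3-positive part, with none lower against either. Over all genes, 4.09% were higher and 9.09% lower than in Cd3-negative lymphoid barcodes, and 5.98% and 7.18% were higher than in the Ncr1-positive and the Gata3-positive part. Lat, the membrane adaptor that gathers the signalling complex, stood at 262 CPM (239 to 286) in T barcodes, against 20.1 CPM (8.06 to 41.3) in the Ncr1-positive and 105 CPM (88.8 to 123) in the Gata3-positive part. Trat1, which stabilises the receptor complex, stood at 54.5 CPM (44.5 to 66.0), with 1 UMI in all Cd3-negative lymphoid barcodes. Ubash3a, a phosphatase that restrains receptor signalling, stood at 86.4 CPM (73.7 to 101), against 20.1 CPM (8.06 to 41.3) and 8.90 CPM (4.74 to 15.2). Icos, a costimulatory receptor, stood at 426 CPM (398 to 457), against 83.1 CPM (55.6 to 119) and 219.8 CPM (196 to 245).

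Naive and recirculation genes were also higher in T barcodes, 7 of 10 against Cd3-negative lymphoid and none lower, where 4.09% of all genes were higher and 9.09% lower. S1pr1, the receptor that draws T cells out of tissue into lymph and blood, stood at 115 CPM in 110 T barcodes, against 25.8 CPM (11.8 to 48.9) and 18.5 CPM (12.2 to 26.9) in the 2 parts, and its suffix range was 89.6 to 203 CPM (median 123). It was higher in Cd4 barcodes, 249 CPM (201 to 304), than in the other T barcodes, 82.1 CPM (68.4 to 97.7). Ccr7 stood at 129 CPM (114 to 147) in 59 T barcodes, against 5.73 CPM (0.694 to 20.7) and 2.05 CPM (0.424 to 6.00), but 1 barcode held 18.2% of its UMIs. Klf2, which maintains S1pr1, stood at 273 CPM in T barcodes, lower than the 625 CPM (544 to 713) of the Ncr1-positive part. Of tissue retention genes, Cxcr6 stood at 409 CPM (381 to 439) in T barcodes, against 63.0 CPM (39.5 to 95.4) and 778 CPM (733 to 824), and Cd69, which opposes S1pr1 at the surface, at 139.9 CPM (124 to 158), against 158 CPM (119 to 205) and 303 CPM (275 to 332). Within T barcodes Cxcr6 was 1.76-fold (1.48 to 2.08) higher with Trdc than without. Itgae, the CD103 gene of epithelial resident T cells, was found in 13 barcodes and Zfp683, a residency factor, in 2.

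Transcription factors of T cell fate were higher in part, 8 of 16 against Cd3-negative lymphoid barcodes with none lower, beside 4.09% and 9.09% of all genes. Against the Ncr1-positive part 6 of 17 were higher and 4 lower (Tbx21, Eomes, Id2 and Klf2), and against the Gata3-positive part 7 of 16 were higher and 2 lower (Rora and Id2). Over all genes, 5.98% were higher and 6.6% lower than in the Ncr1-positive part, and 7.18% higher and 5.99% lower than in the Gata3-positive part. Tbx21, which drives type 1 and cytotoxic fates, stood at 89.0 CPM (76.2 to 103) in T barcodes, against 567 CPM (491 to 652) and 2.05 CPM (0.424 to 6.00) in the 2 parts. Rora, a factor of type 2 innate and type 17 cells, stood at 1044 CPM (999 to 1091), against 407 CPM (343 to 479.5) and 3129 CPM (3039 to 3221). Of the T subsets Rora was lowest in Cd8 barcodes, at 198 CPM (152 to 254), and highest in those with no lineage transcript, at 1527 CPM (1442 to 1615). Of those 148 with no lineage transcript, 46 held 3 or more type 2 UMIs. Gata3, by which the Cd3-negative set had been chosen, was found in 25 of 66 Cd4, 8 of 38 Cd8, 13 of 22 Foxp3-positive and 10 of 43 Trdc-positive barcodes. Bach2, which keeps T cells in a resting state, stood at 842 CPM (801 to 884) in T barcodes, against 959.8 CPM (859.8 to 1068) and 1178 CPM (1123 to 1235). Ikzf2 stood at 518 CPM (486 to 551), against 198 CPM (154 to 250.2) and 159.5 CPM (139.7 to 181). It was found in 133 T barcodes, of which 19 held Foxp3.

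Chemokine, cytokine and inhibitory receptors were mixed. The counts that follow stand beside 4.09% of all genes higher and 9.09% lower than in Cd3-negative lymphoid barcodes, and a single gene lower among 11 or 17 is near that share. Of 11 chemokine and sphingosine phosphate receptor genes that reached the floor against Cd3-negative lymphoid barcodes, 3 were higher (Ccr7, Cxcr3 and S1pr1) and 1 lower (Ccr8). Of 17 cytokine receptor genes, 6 were higher and 1 lower. Il7r stood at 707 CPM (669 to 745) in T barcodes, against 192 CPM (149 to 244) in the Ncr1-positive part and 705 CPM (662 to 749) in the Gata3-positive part, which it had helped to choose. Il21r, the receptor of a helper T cell cytokine, stood at 200.1 CPM (181 to 221), against 115 CPM (81.9 to 156) and 7.53 CPM (3.76 to 13.5). Pdcd1, the PD-1 gene, was found in 53 T barcodes, 15 of them Trdc-positive. Lag3 and Havcr2, often found on exhausted T cells, were found in 6 and 4. Of 10 genes of the calcineurin, NFAT and NF-kB pathways, which carry the receptor signal to the nucleus, 2 were higher (Nfatc3 and Ppp3cc) and 3 lower (Nfkb1, Rel and Nfkbia). Those 3 were also more than 2-fold lower than in the Gata3-positive part, whereas Nfkb1 was more than 2-fold higher than in the Ncr1-positive part and Rel and Nfkbia were within 2-fold of it. Of 10 leukocyte adhesion genes 2 were lower (Cd44 and Icam1), and of 6 interferon-stimulated genes none lay past 2-fold. Of 11 adhesion genes 3 were higher than in the Gata3-positive part, none was lower, and none lay past 2-fold of the Ncr1-positive part. None of 9 cycling genes lay past 2-fold of the whole set in either direction. Against the Gata3-positive part 7 of 9 were higher, and against the Ncr1-positive part 1 of 9 (Mki67), with none lower. Mki67 and Top2a were found together in 13 of 319 T barcodes, and the same few cells can carry several genes of this list. Shares over all genes were 7.18% higher and 5.99% lower against the Gata3-positive part, and 5.98% and 6.6% against the Ncr1-positive part.

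Against all other kept barcodes, 14.1% of 8027 genes were more than 2-fold higher in T barcodes and 23.2% lower. Among the 15 highest by ratio were Skap1, Ms4a4b, Grap2, Lef1, Camk4, Cd247, Il7r, Themis, Icos, Ccl5, Gimap3, Satb1, Ptpn22 and Nkg7. Skap1, an adaptor that links the receptor to integrins, stood at 1272 CPM (1222 to 1323) in 305 of 319 T barcodes and 16.6 CPM (16.0 to 17.1) in the others. Grap2, which joins Lat to the signalling complex, stood at 1125 CPM (1078 to 1173) and 16.8 CPM (16.2 to 17.3), and Camk4, a calcium-dependent kinase of lymphocytes and neurons, at 1136 CPM (1088 to 1184) and 21.3 CPM (20.7 to 21.9). Ptpn22, a phosphatase that restrains receptor signalling, stood at 592 CPM (558 to 627) and 16.4 CPM (15.9 to 16.9). Several of these were as high or higher in a lymphoid part: Camk4 stood at 1605 CPM (1541 to 1671) in the Gata3-positive part and Ms4a4b at 971 CPM (871 to 1080.3) in the Ncr1-positive part, against 642 CPM (607 to 679) in T barcodes.

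**Figure D4:**
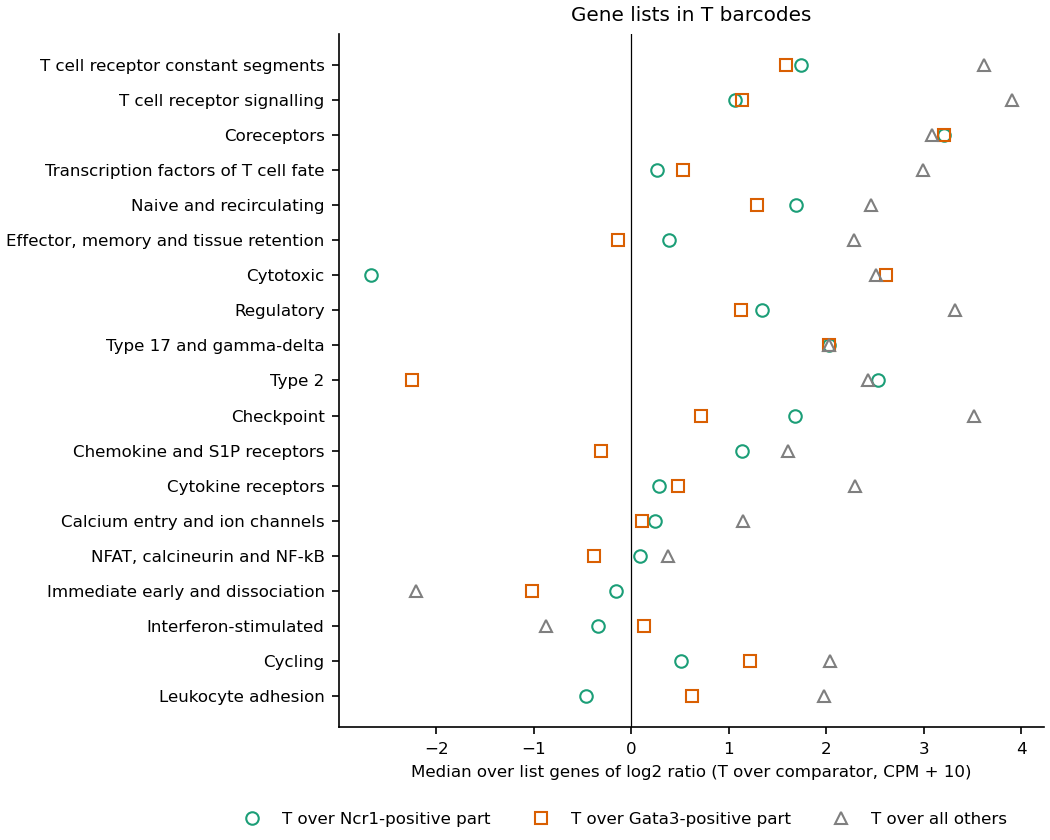
Median log2 ratio of the genes of each list, on the scale of CPM + 10, for T barcodes over the Ncr1-positive part (circles), the Gata3-positive part (squares) and all other barcodes (triangles). Cytotoxic genes lie at -2.67 against the Ncr1-positive part and 2.62 against the Gata3-positive part; type 2 genes lie at 2.53 and -2.25.

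Trpv4, the channel of the study (ENSMUSG00000014158, minus strand, chr5:114622152-114658421 on GRCm38), had no UMI in the 319 T barcodes, which allows a level of up to 1.57 CPM and a share of up to 0.940% of barcodes. All other barcodes stood at 15.1 CPM (14.6 to 15.6), at least 9.58-fold higher, at which level 28.7 UMIs would have been counted in the T barcodes. Cd3-negative lymphoid barcodes held 6 UMIs, or 1.60 CPM (0.588 to 3.49), a level that would give 3.06 UMIs in T barcodes, so a difference between these 2 was not detectable at this depth. The related channel gene Trpv2 stood at 52.4 CPM (42.6 to 63.7) in 73 T barcodes, against 46.7 CPM (40.1 to 54.2) in Cd3-negative lymphoid and 18.1 CPM (17.5 to 18.6) in all other barcodes. T cells take up calcium after receptor engagement mainly through Orai channels opened by the store sensors Stim1 and Stim2. Orai1 stood at 257 CPM (235 to 281) in T barcodes, 195 CPM (181 to 209) in Cd3-negative lymphoid and 45.5 CPM (44.6 to 46.4) in all other barcodes. Stim1 stood at 284 CPM (260.5 to 309), 187 CPM (174 to 202) and 84.6 CPM (83.4 to 85.8). The store release channel Itpr1 stood at 353 CPM (326 to 380.2), 385 CPM (366 to 406) and 109 CPM (107 to 109.9). Of the potassium channels that sustain calcium entry, Kcnn4 stood at 99.5 CPM (85.9 to 115) in T barcodes, against 14.3 CPM (4.65 to 33.4) in the Ncr1-positive and 118 CPM (101 to 137) in the Gata3-positive part, and Kcna3 was found in 3 T barcodes. The mechanically gated channel Piezo1 stood at 56.0 CPM (45.9 to 67.7), against 119.6 CPM (109 to 131) in Cd3-negative lymphoid barcodes, of which the Gata3-positive part held 155 CPM (136 to 177). Of 13 genes in this list 1 was more than 2-fold higher than in Cd3-negative lymphoid barcodes, near the 4.09% of all genes. It was P2rx7, an ATP-gated channel, at 49.2 CPM (39.8 to 60.3) against 9.88 CPM (6.95 to 13.6).

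Immediate early genes, which enzymatic dissociation is known to induce, were low in T barcodes. Of 15, 12 were more than 2-fold lower than in all other barcodes and none higher (median log2 -2.21), where 23.2% of all genes were lower. Against Cd3-negative lymphoid barcodes 9 of 15 were lower, where 9.09% of all genes were, and against the Ncr1-positive part 0 were lower and 2 higher, where 6.6% and 5.98% were. Fos stood at 298 CPM (274 to 323) in T barcodes, 449.8 CPM (382 to 526) in the Ncr1-positive part and 4501 CPM (4492 to 4509.7) in all others. Against the Gata3-positive part 8 of 15 were lower, Fosb among them, where 5.99% of all genes were. Within T barcodes Fosb stood at 426 CPM (382 to 474) in those with no lineage transcript and 96.3 CPM (78.9 to 116) in the rest. Of the 148 with no lineage transcript, 46 held 3 or more type 2 UMIs.

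Markers of other cell types were found in T barcodes, some lists below and some above their level in all others. The fibroblast list without Col1a1 (Col1a2, Col3a1, Dcn and Pdgfra) summed to 277 CPM in T barcodes and 13731 CPM in all others, with a suffix range of 215 to 390.5 CPM in T barcodes. The macrophage list without C1qa summed to 122 CPM and 3189.5 CPM. Of 5 B cell markers 2, and of 4 neutrophil markers 3, were at 0 in T barcodes. The endothelial list (Pecam1, Cdh5, Prox1 and Vwf) summed to 170.2 CPM in T barcodes and 146 CPM in all others, with a UMI in 43.9% and 13.4% of barcodes. Most of the T sum was Pecam1, at 163 CPM, a gene that leukocytes also express, while Cdh5 stood at 2.62 CPM and Prox1 at 3.14 CPM, against 32.3 CPM and 46.9 CPM in all others. The mast cell list summed to 71.8 CPM in T barcodes and 64.6 CPM in all others, with Ms4a2 at 0 in T barcodes. It stood at 161 CPM in T barcodes with neither chain, 52.8 CPM with Trac and 17.5 CPM with only Trdc. The natural killer list summed to 308 CPM and 14.2 CPM, and the list of group 2 innate lymphoid genes to 1215 CPM and 137 CPM, and it stood at 3134 CPM in T barcodes with neither chain and 735 CPM in those with Trac. Smooth muscle markers were uneven, summing to 568 CPM in T barcodes and 1904 CPM in all others, and reaching 3 UMIs in 8 of 319 T barcodes, and 3 barcodes held 402 of the 599 Acta2 UMIs. In the Trdc-positive set 3 barcodes held 198 of 200 Acta2 UMIs. Of the 319, 6 were called doublets, as were 719 of all 23666. The part of these transcripts in the levels above was not tested, beyond the values given without the called doublets.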

How the data were processed

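Cells from C57BL/6J mice were sequenced by droplet single-cell RNA sequencing. The authors made 1 matrix of raw UMI counts per gene and barcode with Cell Ranger 7.1.0 on mm10, per the file headers and the submitters' processing notes, which also name Seurat 4.3.0.1. The deposited counts were used as they stand, without the 12 multiplexing tags. No source maps the 8 barcode suffixes to a mouse, so the matrix is 1 sample and no count test was run. All values were computed in Python 3.11.15 with numpy 2.4.6, scipy 1.17.1, pandas 2.3.3 and scanpy 1.11.5.

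UMIs were summed over the barcodes of a set and divided by the set's total (CPM), with 95% exact Poisson intervals. Ratios carry exact conditional binomial intervals and shares Clopper-Pearson intervals. All cover counting error only, and cells are not replicates. A gene was called past 2-fold on CPM + 10 at 20 CPM or more in either group. Against a set at 0, a floor of 3 counts was used. Scrublet marked doublets within suffixes 1 to 4 and 5 to 8, and these were kept. Calls were checked on simulated Poisson counts, which hold no spread between barcodes and so cannot show how single barcodes weigh on a call. The T rule, the comparison sets and the gene lists were chosen with earlier results of these data known. Named genes are the 15 highest and 15 lowest ratios against Cd3-negative lymphoid barcodes at 50 CPM or more, the 15 highest against all others, the 8 highest and 8 lowest of Cd4 over Cd8, the receptor constant segments, Trpv4, and list genes at 10 CPM or more in T barcodes. Other genes were named after their values were seen. Some genes are not reported here, and the lists leave them out. Alternatives changed the rule, the added CPM, the floor, the comparison set, the suffixes and the doublets.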

Additional observations from a re-analysis of the deposited data

How the results depend on the processing

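The share of T barcodes, 1.35%, was 0.854% when Trac was required, 1.01% when Trac or Trdc was required, 2.21% in suffixes 1 to 4 and 0.633% in suffixes 5 to 8. Leaving out 1 suffix at a time gave 1.09% to 1.51%. The Trdc-positive share was 2.97% with Trac required, 18.0% with Trac or Trdc required, 9.70% in suffixes 1 to 4, 24.4% in suffixes 5 to 8 and 9.18% after thinning to 1000 UMIs. The Cd4 share was 27.7% with Trac required, 10.3% when 2 UMIs were needed and 7.59% after thinning, and the Cd8 share was 5.06% after thinning. Both coreceptors were found in 0% in suffixes 5 to 8, when 2 UMIs were needed and after thinning. The share with no lineage transcript was 37.2% with Trac or Trdc required, 35.4% in suffixes 5 to 8, 62.7% when 2 UMIs were needed and 73.7% after thinning.

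Against Cd3-negative lymphoid barcodes, genes higher in T barcodes numbered 445 with 1 CPM added, 428 in suffixes 5 to 8, 425 against the Ncr1-positive part and 471 against the Gata3-positive part. Genes lower in T barcodes numbered 392 with a floor of 50 CPM, 393 against the Gata3-positive part and 330 against both parts together. Against all others, 1147 were lower with a floor of 50 CPM. Without 1 suffix at a time, 277 to 315 were higher and 534 to 687 lower than in Cd3-negative lymphoid barcodes, and 1101 to 1163 higher and 1847 to 1891 lower than in all others.

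Some genes lower in T barcodes than in the whole Cd3-negative set were level or higher against its parts. The dendritic list summed to 25.8 CPM in the Ncr1-positive part, 81.5 CPM in the Gata3-positive part and 791 CPM in the rest. A pair of Cd8 barcodes held 1163 of the 1665 UMIs of H2-Aa, H2-Ab1, H2-Eb1 and Cd74 in T barcodes. Of 119 Il1b UMIs in T barcodes, 115 came from 2 Cd8 barcodes. Ratios without these barcodes were not computed. The log2 ratios against the Ncr1-positive part were 1.11 for H2-Aa, 1.49 for Cd74, 1.44 for H2-Eb1, 0.73 for H2-Ab1, 0.30 for H2-DMb1, 1.41 for Il1b, 0.88 for Plbd1, 0.0029 for Alox5ap, 0.45 for Wdfy4 and 0.21 for Wfdc18. Against the Gata3-positive part they were 0.035 for H2-Aa, 0.14 for Cd74, 0.13 for H2-Eb1, 0.055 for H2-Ab1, 0.15 for H2-DMb1, 0.67 for Tnip3, 1.31 for Il1b and 0.27 for Pid1. Against both parts together they were 0.19 for H2-Aa, 0.32 for Cd74, 0.31 for H2-Eb1, 0.16 for H2-Ab1, 0.18 for H2-DMb1, 0.20 for Tnip3, 1.33 for Il1b and 0.17 for Pid1. Between Cd4 and Cd8 barcodes, leaving out called doublets gave 1.41 for Acta2 and 0.85 for Myl9. The alternatives with Trac or Trdc required, with both parts together, without 1 suffix and without doublets or barcodes over 20000 UMIs were chosen after seeing the data. No paired analysis was possible because the matrix is 1 pooled sample whose suffixes carry no replicate number. The 319 barcodes limit what can be seen: a gene with no UMI in them may stand at up to 1.57 CPM.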
